A study of Mus musculus with 13 samples.

Results

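This account covers 47 genes of the cell division cycle and its brakes: 9 cyclins, kinases and a transcription factor of G1, 10 genes of DNA replication, 7 genes that act from S phase to mitosis, 6 mitotic kinases and checkpoint genes, 9 genes of the spindle, kinetochore and cytokinesis, and 6 inhibitors of cyclin-dependent kinases (CDK). They were chosen by symbol, and each gene was read from its probe set with the highest mean over the 13 arrays. Of the 47, 45 had a probe set of their own, out of 19537 genes that did. Ccnb1 had none, and the only probe set annotated to Cdkn1a names a second gene as well. Neither gene was tested for expression, and both enter the promoter counts below. RNA came from naive C57BL/6 mice aged 6 to 10 weeks. Hepatocytes, Kupffer cells (liver macrophages) and liver sinusoidal endothelial cells (LSEC) were sorted and used fresh, with 3 arrays each. Hepatic stellate cells (HSC), which store retinoids and turn into matrix-producing cells on plastic, were kept in DMEM with 10% FBS and sampled after 1 day on 2 arrays and after 7 and 14 days on 1 array each. The labels name no genetic change and no drug in any group. Uncultured HSC were not among the samples, so cell type and culture cannot be told apart where HSC are set against the other cells.

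Cells enter the cycle when D-type cyclins with CDK4 or CDK6, and then cyclin E with CDK2, phosphorylate the retinoblastoma proteins and release E2F transcription factors, which switch on genes for DNA synthesis. Cyclin A, the B-type cyclins and CDK1 then carry the cell through G2 into mitosis, where Polo-like and Aurora kinases, motor proteins and checkpoint proteins move and part the chromosomes. CDK inhibitors of the CIP/KIP and INK4 families hold this back. Most adult liver cells rest outside the cycle, and stellate cells are known to begin dividing as they activate in culture.

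Intensities were summarised probe-set values on a linear scale, with array medians of 216.5 to 232.9 and correlations of log2 values within groups of 0.9859 to 0.9957 over probe sets. Summed levels of marker genes were highest where the labels put them: 112418 to 117785 for the 9 hepatocyte markers on hepatocyte arrays, 77780 to 80478 for the 9 macrophage markers on Kupffer arrays, 43639 to 61318 for the 9 endothelial markers on LSEC arrays and 24291 to 35188 for the 9 stellate markers on HSC arrays. On HSC arrays Dcn gave 11402 to 12317 of the stellate sum. Col1a1 read 935 and 905 at day 1, then 6807 and 11780 at days 7 and 14. Des, Pdgfrb, Lrat and Hand2 were also higher on both later arrays than on both day 1 arrays. Reln fell from 4331 and 4597 to 2270 and 277, and Ngfr from 475 and 632 to 349 and 265. Markers of other cells were present too. The hepatocyte list summed to 16283 and 9770 on the day 1 HSC arrays but to 1156 and 1126 at days 7 and 14. Endothelial markers summed to 10177 to 11308 on day 1 HSC and 12410 to 14646 on Kupffer arrays, against 1705 and 1906 in long culture. Cdh5 alone gave most of these sums, at 9141 to 10040 on Kupffer arrays and 6552 and 5427 on day 1 HSC arrays. On Kupffer arrays Clec4g read 812 to 1504 and Pecam1 1070 to 1319. Stab2, Lyve1, Kdr, Cldn5, Tek and Oit3 read 124 to 502 there. In bulk RNA, fewer cells of a type and less RNA per cell cannot be told apart.

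Cyclins, kinases and spindle genes of mitosis rose when HSC stayed in culture beyond the first day. Of 9 replication genes tested 1 was called higher, where 5.52% of all genes tested were. A gene was called when its adjusted p (limma, Benjamini-Hochberg over all genes tested) was under 0.05 and its log2 difference at least 1, on the scale of log2(intensity + 82.7). With the day 7 and day 14 arrays set together against the 2 day 1 arrays, 18 of 39 members tested rose, where 5.52% of the 12368 genes tested were higher, and 0 fell, where 4.27% were lower. At an unadjusted p under 0.05, whatever the size, 28 were higher and 2 lower (Cdk4 and Pcna), against 2647 and 3592 of the 12368 genes. The filter kept genes above the pooled median of 224.5 on at least 2 arrays, and 10 of the 39 passed only because the day 7 and day 14 arrays were included. Of the 18 called, Bub1, Kif11, Kif20a, Prc1, Top2a and Tpx2 are among these 10. Without the filter, 19 of all 45 rose (Cenpe in addition) and 0 fell, against 3.56% and 2.68% of 19537 genes. The median log2 difference was 0.88 over the 45 members and -0.0018 over all genes.

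**Figure D1:**
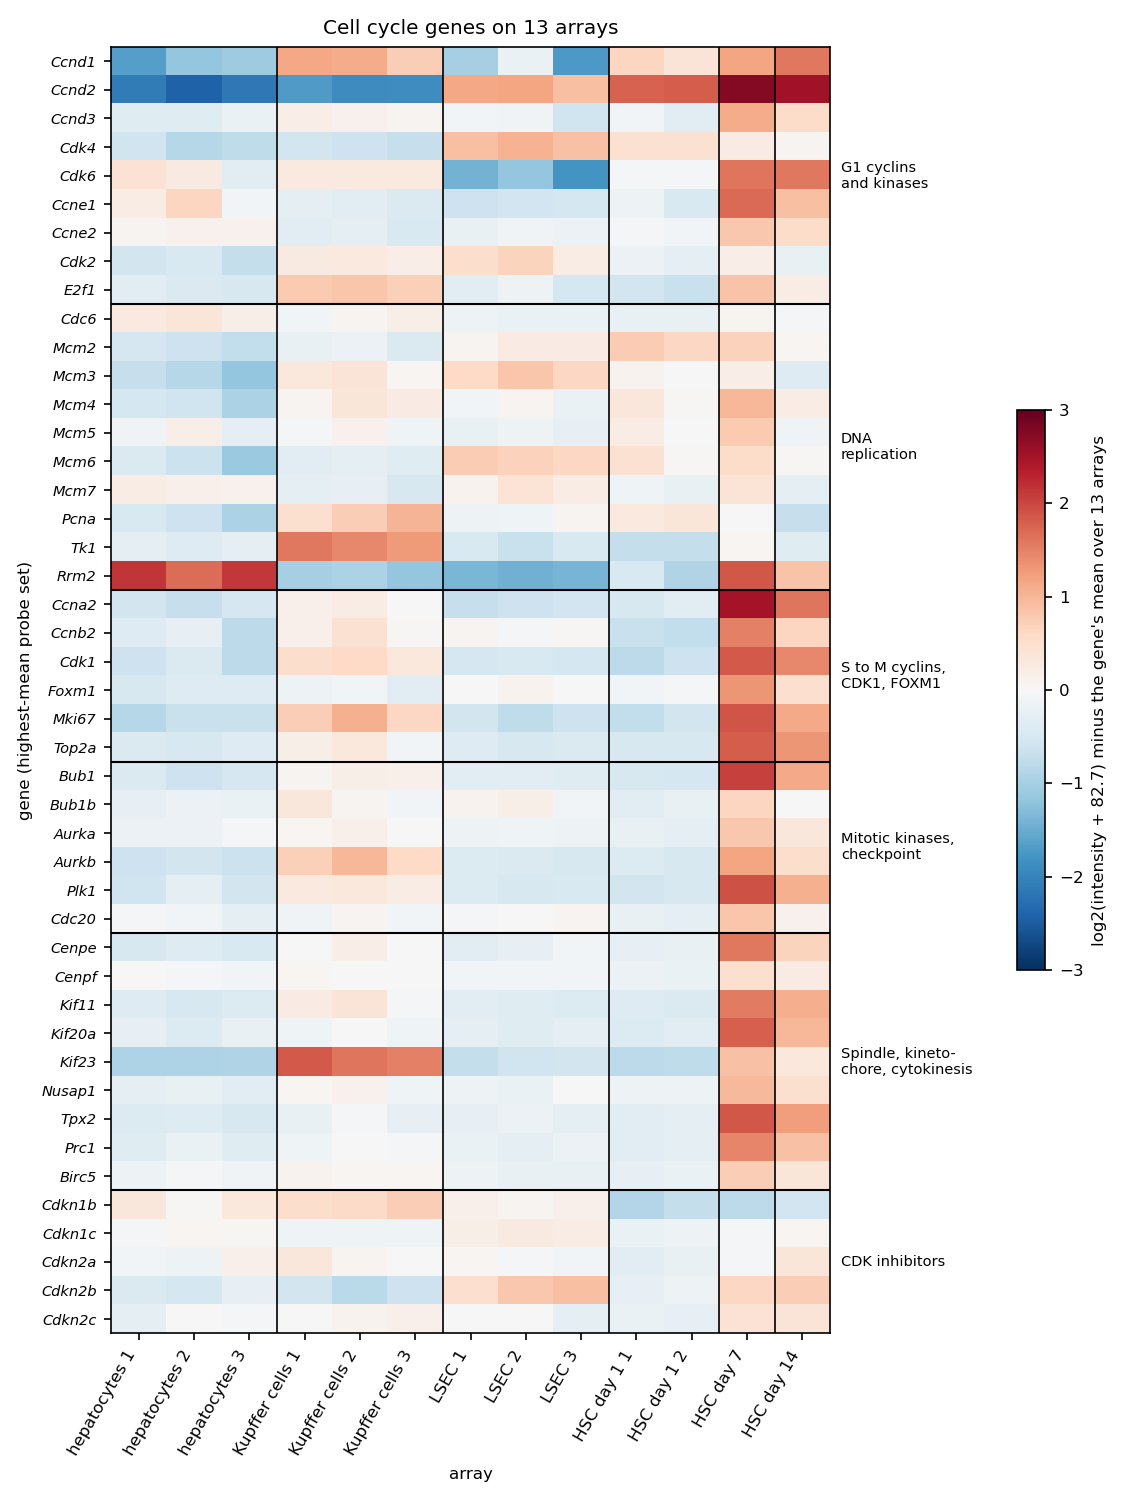
Rows are the 45 genes with a probe set of their own, ordered by role, and columns are the 13 arrays. Colour is log2(intensity + 82.7) minus the gene's mean over the arrays; the day 7 HSC array is the highest of the 13 for 30 genes, and the Kupffer arrays stand above the other 8 arrays of the population comparison for 20.

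The S to M group moved furthest. Ccna2 encodes cyclin A2, the partner of CDK2 and CDK1. Its intensity was 121 and 142 at day 1, 1536 at day 7 and 779.6 at day 14, and 92.3 to 249.8 on the 9 arrays of the other cells. Cdk1, the mitotic kinase itself, read 167 and 193 at day 1, 1449 at day 7 and 1077 at day 14. In both genes each long-culture array lay above every other array, and the log2 differences with their standard errors were 2.46 ± 0.21 for Ccna2 (adjusted p = 2.2e-06) and 2.35 ± 0.14 for Cdk1 (adjusted p = 1e-07), or 8.8-fold and 7.02-fold between mean intensities. Mki67, which encodes the proliferation antigen Ki-67, read 118 and 143, then 1146 and 648, a rise of 2.15 ± 0.20. Top2a, the topoisomerase that untangles sister chromatids, read 74.7 and 75.5, then 690.1 and 466, a rise of 2.04 ± 0.15. A second Top2a probe set, dim at up to 30.3 on all 13 arrays, read 18.8 at day 7 and did not show this rise. Ccnb2, a B-type cyclin, read 244 and 227, then 1394 and 721, a rise of 1.78 ± 0.24. Foxm1, the transcription factor of the G2/M genes, read 194 and 201, then 653 and 334. Its log2 difference of 0.98 ± 0.19 (adjusted p = 0.0011) fell short of the size limit, so 5 of the 6 measured genes of this group were called. Top2a and Foxm1 passed the filter only through the long-culture arrays.

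**Figure D2:**
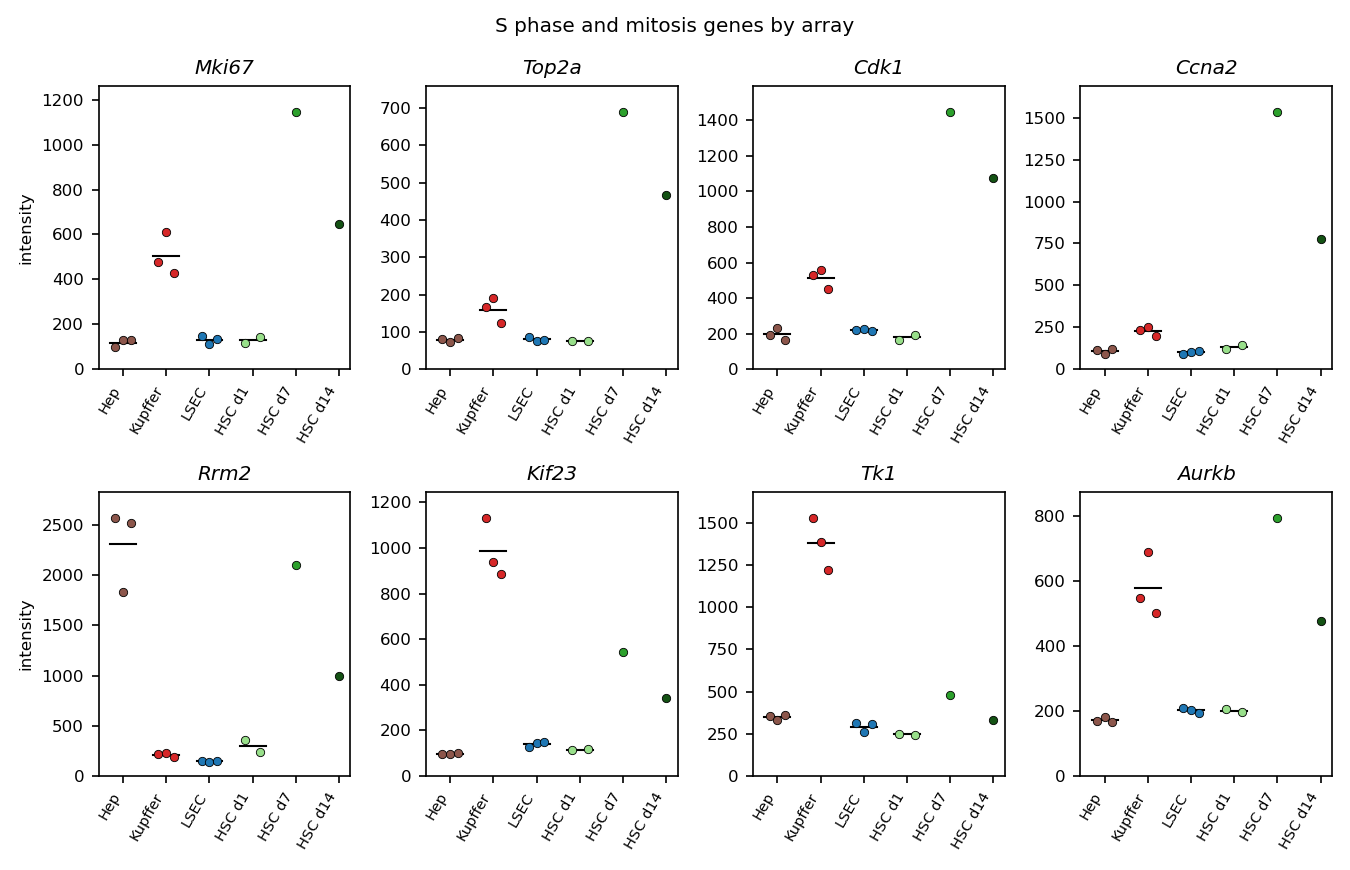
Each point is the intensity of 1 array (linear axis from 0) and each bar the mean of a group with more than 1 array: hepatocytes, Kupffer cells, LSEC, and HSC at day 1, 7 and 14 (d1, d7, d14). Mki67, Top2a, Cdk1 and Ccna2 are highest on the day 7 and day 14 HSC arrays, and Kif23 and Tk1 on the 3 Kupffer arrays. Rrm2 is high on the 3 hepatocyte arrays and at day 7, where it reads 2104, between the hepatocyte values.

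Among mitotic kinases and checkpoint genes 3 of 6 rose. Bub1, Bub1b and Cdc20 passed the filter only through the long-culture arrays, and of these Bub1 was called. Bub1, a kinetochore kinase of the spindle checkpoint, read 41.7 and 38.7 at day 1, 634 at day 7 and 299 at day 14 (log2 2.09 ± 0.20). Its day 1 values lie under the pooled 20th percentile of 82.7, so no fold is given. Plk1, the Polo-like kinase of mitotic entry, read 139.9 and 151, then 1155 and 598 (log2 2.01 ± 0.20). Aurkb, the kinase of the chromosomal passenger complex, read 205 and 195, then 793 and 477 (log2 1.31 ± 0.17). The other 3 were higher on both long-culture arrays than on both day 1 arrays, with differences under the size limit: 0.83 for Aurka (adjusted p = 0.0002), 0.73 for Cdc20 (0.0037) and 0.62 for Bub1b (0.013).

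Of the 9 spindle, kinetochore and cytokinesis genes 5 were called, and 6 without the filter. These 5 are also those that passed the filter, 4 of them only through the long-culture arrays. Tpx2, which targets Aurora A to spindle microtubules, read 126 and 133 at day 1, 888 at day 7 and 547 at day 14 (log2 1.88 ± 0.16). Kif20a, a kinesin of the central spindle, read 107 and 121, then 793 and 424 (log2 1.76 ± 0.18). Kif11, the motor that pushes the spindle poles apart, read 84.7 and 79.4, then 563 and 383 (log2 1.73 ± 0.15). In each of these the day 1 values lay within the range of the hepatocyte and LSEC arrays, and the day 7 value was 6.55 to 6.66 times the higher day 1 value. Prc1, which bundles midzone microtubules, read 65.6 and 68, then 426 and 258 (log2 1.48 ± 0.15). Kif23, the kinesin of centralspindlin, read 113 and 116, then 542 and 339 (log2 1.38 ± 0.15), below all 3 Kupffer arrays. The other 4 members of this group failed the filter. Without it Cenpe, the kinetochore motor, was called with 68.8 and 70.6 at day 1, 452 at day 7 and 202 at day 14 (log2 1.36 ± 0.22), while Nusap1 (0.89), Birc5 (0.76) and Cenpf (0.55) stayed under the size limit.

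G1 genes divided: 4 of 8 tested rose. Cdk6 read 1129.8 and 1135 at day 1 and 3768 and 3721 at days 7 and 14, nearly equal at the later times (log2 1.66 ± 0.21). Ccne1, cyclin E1, read 314 and 240.1, then 1355 and 748 (log2 1.61 ± 0.24). E2f1, an activating E2F, read 221 and 198, then 732 and 442 (log2 1.16 ± 0.17). Ccnd3, cyclin D3, read 554 and 456, then 1385 and 909 (log2 1.04 ± 0.19). The other D-type cyclins were also higher on both long-culture arrays, short of a call: Ccnd2, cyclin D2, went from 6013 and 6193 to 11972 and 10209 (log2 0.85 ± 0.14, adjusted p = 0.0003). Ccnd1, cyclin D1, went from 2084 and 1725 to 3091 and 4066 (log2 0.87 ± 0.36, adjusted p = 0.067). Cdk4, the sister kinase of Cdk6, did not follow it: 7059.6 and 7057 at day 1 and 6023 and 5414 later, both below day 1 (log2 -0.30 ± 0.11, adjusted p = 0.036). Cdk2, the kinase of cyclin E, read 489 and 445 at day 1, 651 at day 7 and 469 at day 14, with no call.

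Calls were fewer among replication genes than among mitotic genes. Of the 9 tested 1 was called, where 5.52% of all genes tested were higher, so the count is not below that share. The gene called was Rrm2. It encodes the cell-cycle subunit of ribonucleotide reductase, the enzyme that makes deoxynucleotides, and read 357 and 238 at day 1, 2104 at day 7 and 995 at day 14 (log2 2.03 ± 0.26). The 6 subunits of the MCM helicase, Mcm2 to Mcm7, had log2 differences from -0.31 (Mcm2) to 0.42 (Mcm4), with adjusted p from 0.15 to 0.87, and in none of them did both later arrays lie on 1 side of both day 1 arrays. Mcm2 read 1078 and 977 at day 1, 1030.2 at day 7 and 633 at day 14. Mcm5 read 637 and 534 at day 1, 983 at day 7 and 492 at day 14. Mcm5 was thus above the day 1 range at day 7 and below it at day 14, while Mcm2 was within it and then below. Mcm3 read 395 and 363 at day 1, then 428 and 259, and Mcm4 534 and 413, then 885 and 483. Mcm6 read 748 and 540, then 803 and 545, and Mcm7 544 and 505, then 835 and 489. Each of these was above its day 1 values at day 7 and within or below them at day 14. Pcna, the sliding clamp of DNA polymerases, was lower on both later arrays (3689.7 and 3846, then 3032 and 1817), with a difference of -0.66 ± 0.22 (adjusted p = 0.029) that missed the size limit. Its second probe set gave nearly the same values. Tk1, thymidine kinase of the salvage pathway, read 246 and 244, then 478 and 334 (log2 0.56 ± 0.14, adjusted p = 0.0055), and Cdc6, the loader of MCM, failed the filter at 95.6 to 136 on HSC arrays.

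None of the 5 CDK inhibitors with a probe set of their own was called in culture by limma, and 3 were higher and 0 lower at an unadjusted p under 0.05. At that p 2647 of all 12368 genes were higher and 3592 lower. Cdkn2b, p15 of the INK4 family, came nearest, with 336 and 361 at day 1, 674 at day 7 and 744 at day 14 (log2 0.87 ± 0.14, adjusted p = 0.00027). Cdkn2c, p18, read 126 and 121, then 240.3 and 231 (log2 0.63 ± 0.12, adjusted p = 0.001). Cdkn2a, the locus of p16 and p19ARF, read 166 and 183, then 221 and 314 (log2 0.43 ± 0.15, adjusted p = 0.032). All 3 INK4 genes were therefore higher on both later arrays than on both day 1 arrays, by less than the size limit. For the CIP/KIP genes, Cdkn1b (p27) read 535 and 613, then 579 and 674, so that the day 7 value lay between the day 1 values. Cdkn1c (p57) read 192 and 201, then 216 and 242. Probe set 10443463, annotated both to Cdkn1a (p21) and to 4930567H12Rik, read 9574 and 10212 at day 1, 8443 at day 7 and 6898 at day 14. Its signal is not assigned to either gene.

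**Figure D3:**
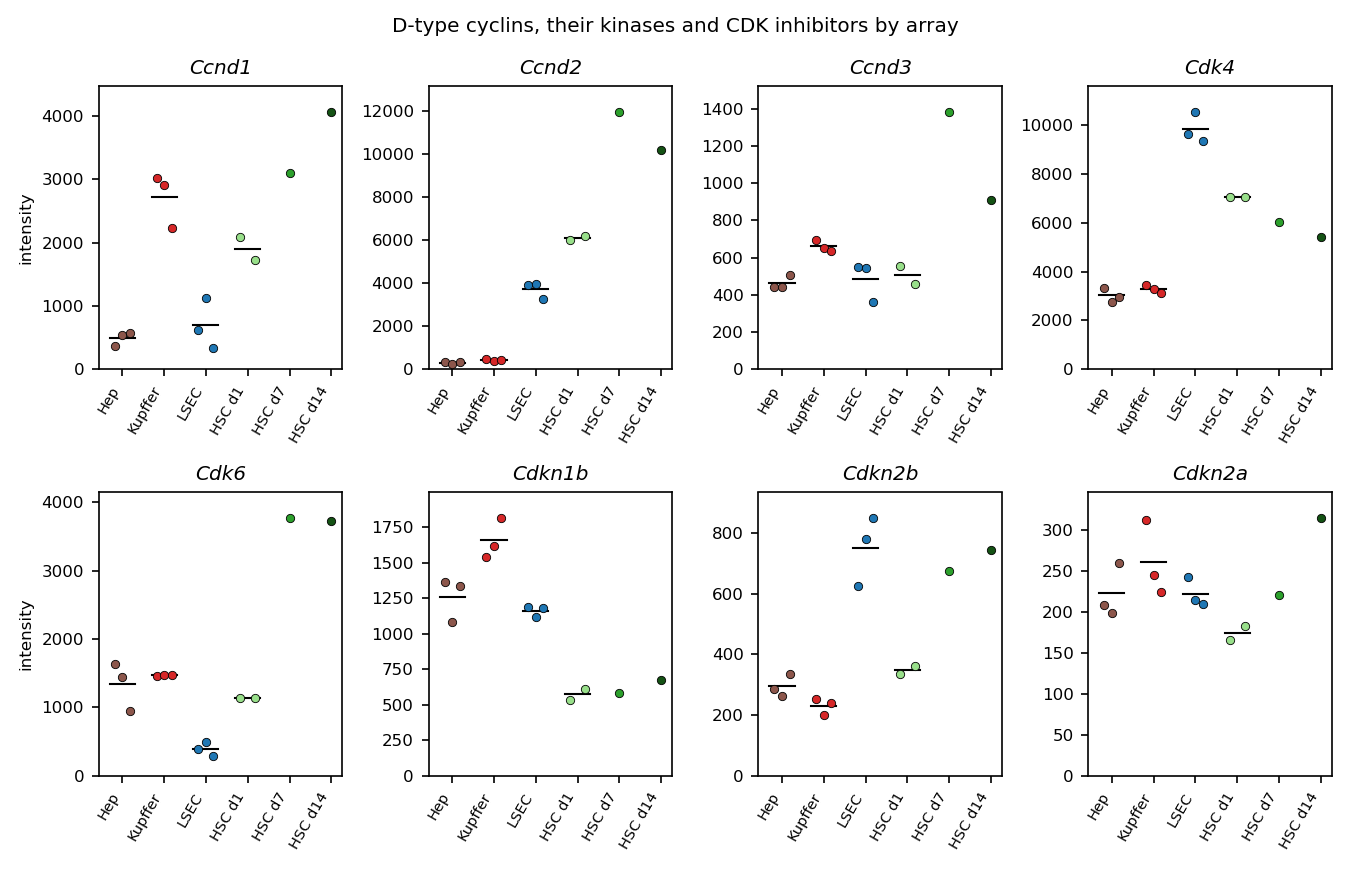
Each point is the intensity of 1 array (linear axis from 0) and each bar a group mean: hepatocytes, Kupffer cells, LSEC, and HSC at day 1, 7 and 14 (d1, d7, d14). Ccnd2 is highest in HSC, Cdk4 in LSEC, and Cdk6 lowest in LSEC; Cdkn1b is lower on all HSC arrays than on the 9 arrays of freshly sorted cells.

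Within long culture most of these genes were higher at day 7 than at day 14. With 1 array for each time there is no test, and the values describe these arrays. Day 7 exceeded day 14 for 40 of 45 members, against 56.7% of all genes, and by at least 0.5 on the log2 scale for 24 of 45, against 4.07%. The day 7 array was the highest of all 13 for 30 of 45 members, against 8.37% of genes. In the opposite direction 0 of 45 reached 0.5, against 1.71% of all genes. The ratio of day 7 to day 14 intensity had a median of 1.85 in the S to M group, 1.81 in the mitotic kinase and checkpoint group, 1.66 in the replication group, 1.62 in the spindle group, 1.28 in the G1 group and 0.89 in the CDK inhibitors. The 5 genes that were higher at day 14 were Ccnd1 and 4 of the 5 inhibitors (Cdkn1b, Cdkn1c, Cdkn2a and Cdkn2b). Both later arrays still lay above all 11 other arrays for 25 of 45 members, against 8.06% of all genes, and above both day 1 arrays for 35 of 45, against 30%. Both lay below day 1 for Cdk4 and Pcna, 2 of 45, against 32.4%.

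**Figure D4:**
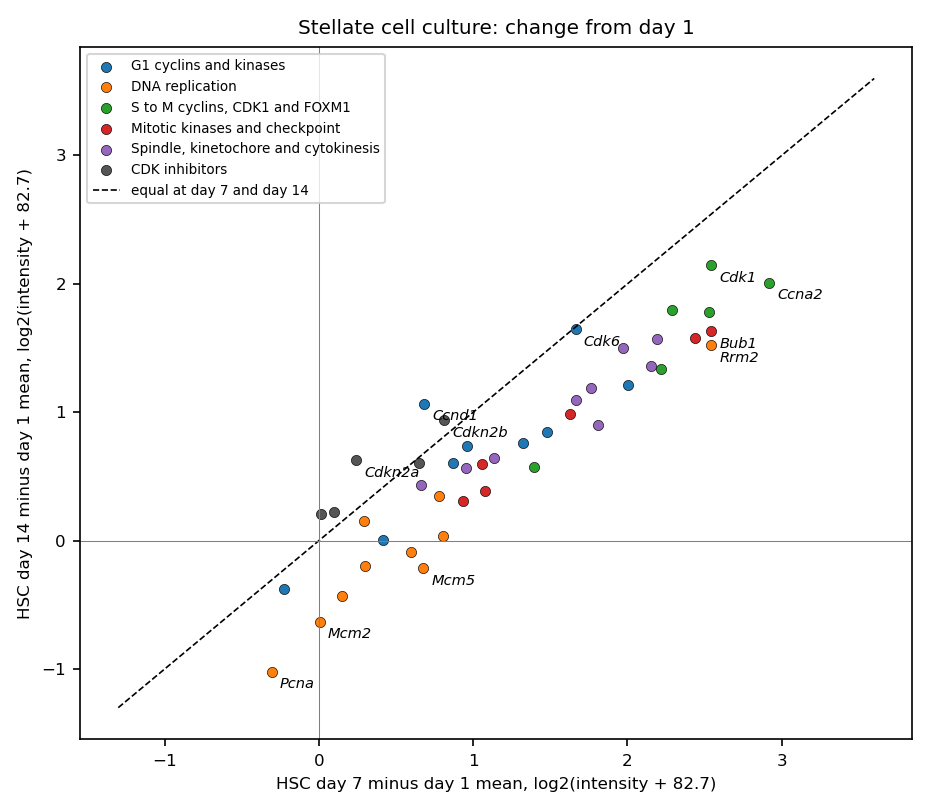
Each point is 1 of 45 genes, coloured by role. The x axis is the day 7 array and the y axis the day 14 array, each minus the mean of the 2 day 1 arrays, in log2(intensity + 82.7), and 40 genes lie below the dashed line of equal change.

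The count of calls rests in part on the day 7 array. With the day 14 array alone, 9 members were called higher of 31 tested (4.61% of all genes), namely Ccna2, Ccnb2, Ccne1, Cdk1, Cdk6, Kif23, Mki67, Plk1 and Rrm2. Pcna was then called lower, the only member to be (5.73% of all genes). With the day 7 array alone, 15 of 32 tested were called higher (5.2%). A single long-culture array leaves fewer members past the filter, and without the filter the day 14 array alone gave 15 higher of 45 (3.5%) and the day 7 array alone 23 (4.01%). Without the day 7 array the calls of Aurkb (0.98), E2f1 (0.85) and Ccnd3 (0.76) ended, and that of Ccnd3 ended also without replicate 2 of day 1 (0.92).

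Promoter sequences were available from RefSeq (GRCm38.p6) for 37 of the 47 genes, as 43 windows from 250 bases before to 50 bases after a start site. They were searched on both strands for 3 elements known from cell cycle promoters: the cell cycle homology region (CHR, TTTGAA), the CCAAT box (CCAAT) and E2F-type sites (GCGGGAA, or else TTGGCGC, or else TTCGCGC, the last pair overlapping in TTGGCGCGAA, which holds both on opposite strands). Of the 18 windows of S to M, mitotic and spindle genes, 13 held a CHR (72.2%), all of these 13 also a CCAAT box, and 16 a CCAAT box (88.9%). These 18 windows come from 17 genes, since Prc1 gave overlapping windows, each with a CHR and a CCAAT box. Over all 32851 windows the shares were 17.9% for a CHR, 37.4% for a CCAAT box and 6.95% for both together. Of the 17 windows of G1 and replication genes 1 held a CHR (5.88%), while 7 held an E2F-type match (41.2%), against 8.07% of all windows and 16.7% in the mitotic set. These 17 windows come from 15 genes, and Mcm7 gave more than 1 of the windows with an E2F-type match. Among the 8 windows of CDK inhibitors, from 5 genes, 1 held a CHR and 2 an E2F-type match. A match is a run of letters and was not tested as a binding site.

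Upstream sequences of 4 genes are shown because they differ both in these elements and in their values. Cdk1 (chr10:69352913-69353162) and Top2a (chr11:99024190-99024439) rose in culture. Mcm6 (chr1:128359706-128359955), a helicase subunit, was not called (0.052), and Rrm2 (chr12:24708004-24708253) is the replication gene that rose. The first 3 lie on the minus strand and Rrm2 on the plus strand. Capitals mark the matches, which on the opposite strand read TTCAAA for the CHR, ATTGG for the CCAAT box and GCGCGAA for the last E2F-type site.
Cdk1: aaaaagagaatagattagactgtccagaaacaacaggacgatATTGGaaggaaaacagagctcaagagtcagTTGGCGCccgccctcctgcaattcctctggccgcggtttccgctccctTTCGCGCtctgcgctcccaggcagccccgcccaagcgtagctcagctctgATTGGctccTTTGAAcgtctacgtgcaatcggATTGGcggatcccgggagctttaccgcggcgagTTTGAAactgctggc
Top2a: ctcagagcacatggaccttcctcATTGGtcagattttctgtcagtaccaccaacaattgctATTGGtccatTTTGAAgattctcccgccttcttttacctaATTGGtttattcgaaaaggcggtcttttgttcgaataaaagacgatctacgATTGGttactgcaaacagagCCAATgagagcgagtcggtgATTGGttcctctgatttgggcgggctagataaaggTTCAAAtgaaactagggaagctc
Mcm6: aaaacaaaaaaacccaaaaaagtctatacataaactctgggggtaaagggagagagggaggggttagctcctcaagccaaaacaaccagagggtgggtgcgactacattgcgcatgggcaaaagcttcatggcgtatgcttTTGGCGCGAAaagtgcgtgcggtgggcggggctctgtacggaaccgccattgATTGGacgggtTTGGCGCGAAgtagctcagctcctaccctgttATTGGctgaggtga
Rrm2: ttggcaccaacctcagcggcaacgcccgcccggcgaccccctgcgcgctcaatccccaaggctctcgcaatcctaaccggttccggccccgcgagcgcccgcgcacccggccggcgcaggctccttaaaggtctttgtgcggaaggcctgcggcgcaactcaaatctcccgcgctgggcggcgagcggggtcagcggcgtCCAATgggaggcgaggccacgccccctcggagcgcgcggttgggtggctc
Cdk1 and Top2a show CHR letters near ATTGG boxes, Cdk1 also a pair of E2F-type matches, Mcm6 shows TTGGCGCGAA beside ATTGG and no CHR, and Rrm2 shows a single CCAAT with neither of the other elements.

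**Figure D5:**
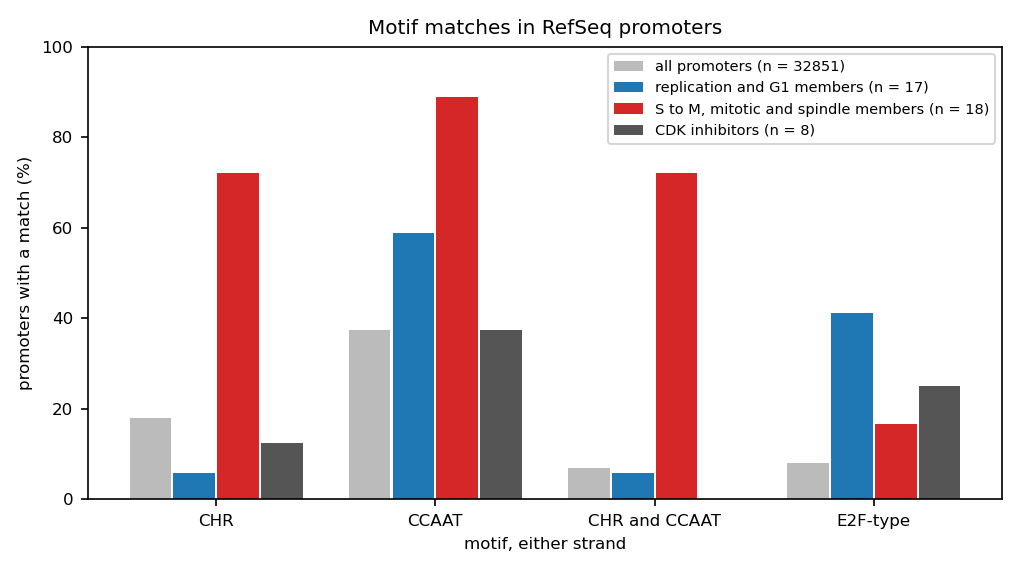
Bars give the percent of RefSeq promoter windows (250 bases before to 50 after the start) with at least 1 match on either strand, for all windows and for 3 sets of cell cycle genes, n being the number of windows. The mitotic set stands at 72.2% for CHR with CCAAT, against 6.95% of all windows.

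Genes of the same pathways outside the 47 were counted in the same fit, in which 5.52% of all genes tested were higher in long culture and 4.27% lower. In a list of mitosis and cytokinesis genes 8 of 18 tested rose and 0 fell (43 of 44 were measured). At an unadjusted p under 0.05 in limma 16 were higher and 1 lower, against 2647 and 3592 of all 12368 genes. Of the 18, 6 passed the filter only through the long-culture arrays, and 3 of the calls (Anln, Ckap2 and Racgap1) are among these 6, so the count to read is that without the filter, 13 of 43 higher, against 3.56% of genes. The largest difference was in Anln, the actin scaffold of the cleavage furrow, at 3.38 ± 0.16. Mean intensity of Anln was 118 at day 1 and 2059 in long culture. Ect2, which activates RhoA at the furrow (1.67), Mad2l1 of the spindle checkpoint (1.64) and Racgap1, the centralspindlin partner of Kif23 (1.49), followed. Of 28 licensing and replication genes tested 2 rose and 1 fell. Those that rose were Rrm1, the large subunit of ribonucleotide reductase (1.63), and Tyms, thymidylate synthase (1.04). Orc2 of the origin recognition complex fell (-1.11). At an unadjusted p under 0.05 in limma 12 of the 28 were higher and 2 lower, against the same 2647 and 3592 of all 12368 genes. Of the 28, 4 passed the filter only through the long-culture arrays, and none of these 4 was called. Among 18 pocket protein, E2F and MuvB genes, E2f8 rose (1.56 ± 0.34) and E2f5 fell (-1.15 ± 0.14). Of 14 genes of G1 regulation and CDK activity control Cks1b (1.28) and Wee1 (1.18) rose. Myc, of the same list, fell by 1.59 on the log2 scale, from a mean intensity of 8102 to 2768. Of 18 p53 target genes 1 rose, Btg2 (1.33), and 1 fell, Sesn2 (-1.24).

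Marker genes of other cells moved along with culture time. Beside the lower hepatocyte and endothelial sums of long culture, the cholangiocyte and mesothelial list summed to 731 and 802 at day 1 and to 1296 and 1215 at days 7 and 14. Krt19 read 146 and 183 at day 1, 559 at day 7 and 172 at day 14, and Upk3b 137 and 154, then 263 and 548. The other markers of this list changed less. Krt7 read 222 and 235, then 259 and 227, and Msln 138 and 134, then 139 and 184. Epcam read 88.4 and 95.6, then 74.8 and 83.5. The macrophage list stood at 4313 and 5669 at day 1 and 3063 and 3971 later. B cell, T and NK cell and neutrophil lists were at the level of the other non-Kupffer groups in all 4 HSC arrays. The part of these cells in the changes above was not tested.

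Among the freshly sorted cells and day 1 HSC, several division genes were highest in Kupffer cells. Against hepatocytes 9 of 29 tested members were higher in Kupffer cells (13.7% of 12081 genes) and 1 lower (12%). Against LSEC 7 were higher (9.54%) and 4 lower (10.3%), and against day 1 HSC 7 were higher (11.7%) and 2 lower (12.9%). Higher than in each other population were 5: Aurkb, E2f1, Kif23, Mki67 and Tk1 (6.53% of genes). All 3 Kupffer arrays lay above all 8 arrays of hepatocytes, LSEC and day 1 HSC for 20 of 45 members, against 13% of all genes. The like count was 4 of 45 for hepatocytes (15.1% of genes) and 6 of 45 for LSEC (9.65%).

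Kif23 differed most. Its intensity was 1130.5, 938 and 888 on Kupffer arrays, 93.8, 95.1 and 98.9 on hepatocyte arrays, 125, 141 and 147 on LSEC arrays and 113 and 116 on day 1 HSC arrays, and the smallest log2 difference was 2.27 ± 0.088, against LSEC (adjusted p = 2.7e-10). Tk1 followed with 1530.0, 1390.0 and 1222 in Kupffer cells, 355, 329 and 361 in hepatocytes, 311, 259 and 307 in LSEC and 246 and 244 in day 1 HSC. The Kupffer arrays did not overlap with any other array in either gene, long culture included, and a second Tk1 probe set showed the same order of Kupffer cells above the rest. Mki67 read 477, 611 and 428 in Kupffer cells and 100.4 to 146 on the other 8 arrays. Aurkb read 548, 689 and 500.3 in Kupffer cells and 165 to 208 elsewhere, and E2f1 read 685, 713 and 647 against 198 to 318. Cdk1 was called against hepatocytes and day 1 HSC, at 528, 559 and 452 against 166 to 231 and 167 to 193, and missed the size limit against LSEC (0.97, adjusted p = 2.7e-06). Top2a was dim throughout, at 166, 190.4 and 123 in Kupffer cells and 73.1 to 85.6 elsewhere, and failed the filter in this comparison. Other mitotic genes followed only in part, with 12 of the further list tested. Cenpa, the centromere histone, was higher in Kupffer cells than in LSEC (1.22) and day 1 HSC (1.41). Pttg1, securin, was higher than in day 1 HSC (1.09). Against hepatocytes 0 were called. At an unadjusted p under 0.05 in limma 7 were higher and 1 lower in Kupffer cells, against 4264 and 4319 of all 12081 genes.

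Markers of B cells moved with the Kupffer arrays. The 4 measured B and plasma cell genes summed to 2169, 1234 and 1871 on the Kupffer arrays in order of replicate number and to 276 to 353 on the 10 others. Over the 3 Kupffer arrays Kif23 and Tk1 were highest on replicate 1, which had the highest B cell sum, and Mki67, Cdk1, Aurkb and E2f1 on replicate 2, which had the lowest. T and NK cell markers summed to 491 to 609 in Kupffer cells and 421 to 513 elsewhere, and neutrophil markers to 561 to 595 against 474 to 610. Their part in the Kupffer values was not tested.

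Long-cultured HSC and Kupffer cells differed in which division genes were high. This comparison was added after the values had been seen. Of 39 members tested, 15 were higher in long culture (12.3% of genes) and 4 lower (11.2%). Of the 15, 7 (Bub1, Foxm1, Kif11, Kif20a, Prc1, Top2a and Tpx2) passed the filter only through the long-culture arrays, where they are high. Without the filter 17 of 45 were higher (7.89% of genes) and 4 lower (7.11%). Among the higher were the mitotic genes Tpx2 (1.72), Kif20a (1.499), Bub1 (1.44) and Top2a (1.44), together with Ccnd2 (4.46), Rrm2 (2.39) and Ccna2 (1.93). Lower were Tk1 (-1.59), Cdkn1b (-1.29), Pcna (-1.08) and Kif23 (-1.05). Without the day 7 array 6 were higher. The call of Pcna ended without the day 14 array (-0.73) or Kupffer replicate 3 (-0.95), and that of Kif23 without the day 14 array (-0.77) or Kupffer replicate 1 (-0.95).

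In hepatocytes 1 member of 29, Rrm2, was higher than in each other population (6.8% of genes were). Its intensity was 2571, 1839 and 2519 on hepatocyte arrays, 218, 230.4 and 186 in Kupffer cells, 151, 138 and 145 in LSEC and 357 and 238 in day 1 HSC. Hepatocytes were 16-fold above LSEC (log2 3.38 ± 0.14, adjusted p = 4.3e-10), 10.9-fold above Kupffer cells and 7.76-fold above day 1 HSC, where the hepatocyte markers and Rrm2 were both higher on replicate 1. Rrm1, the other subunit of the enzyme, ran the opposite way: mean intensity was 211 in hepatocytes, 526 in Kupffer cells, 938 in LSEC and 773 in day 1 HSC, and it was lower in hepatocytes than in each (log2 -1.04, -1.79 and -1.54). Mitotic genes were not high in these cells, with Mki67 at 100.4, 128 and 128. The 3 measured erythroid markers also summed higher on hepatocyte arrays, to 1545 to 1926 against 302 to 424 elsewhere. The gap was in Alas2, at 1313, 1658 and 1692 against 130.1 to 237. The erythroid transcription factor Klf1 read 144, 103 and 148 against 86.2 to 109, and Epb42 read 88.1, 114 and 85.7 against 81.3 to 103. On hepatocyte arrays the erythroid sum was lowest on replicate 1, where Rrm2 was highest. At day 7 of HSC culture the sum was 336 and Rrm2 read 2104. Their part in the Rrm2 values was not tested. Against LSEC 2 of 29 members were higher in hepatocytes (10% of genes; Rrm2 and Cdk6) and 6 lower (12.5%), and against day 1 HSC 2 were higher (10.1%; Rrm2 and Cdkn1b) and 5 lower (12.3%).

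Some helicase subunits and Pcna were lower in hepatocytes than in other cells. Mcm3 read 196, 163 and 116 in hepatocytes, 475, 500.3 and 382 in Kupffer cells, 596, 708 and 607 in LSEC and 395 and 363 in day 1 HSC, and was called against Kupffer cells (-1.16) and LSEC (-1.59). Mcm6 read 948, 906 and 845 in LSEC, above 370.0, 309 and 199 in hepatocytes and 404, 416 and 387 in Kupffer cells, both called. The call against Kupffer cells ended without Kupffer replicate 3 (-0.99) or LSEC replicate 1 (-0.98). Mcm2 was highest in day 1 HSC at 1078 and 977 and lowest in hepatocytes at 398, 363 and 326 (-1.32). Mcm3 and Mcm6 were thus highest in LSEC and Mcm2 in day 1 HSC. Mcm4, Mcm5 and Mcm7 were not called in any pair. Mcm4 read 168 to 257 in hepatocytes and 343 to 547 in the other cells. Mcm5 overlapped, at 431 to 618 in hepatocytes, 480 to 594 in Kupffer cells and 442 to 473 in LSEC. Mcm7 read 663 to 716 in hepatocytes, above 406 to 497 in Kupffer cells and 505 and 544 in day 1 HSC. Pcna read 4199, 5056 and 6163 in Kupffer cells, 3689.7 and 3846 in day 1 HSC, 2699.9, 2712 and 3166 in LSEC and 2156, 1904 and 1517 in hepatocytes, and was called lower in hepatocytes than in Kupffer cells (-1.42) and day 1 HSC (-1.001). The latter call ended without hepatocyte replicate 3 (-0.87) or day 1 replicate 2 (-0.97). Of 24 further licensing and replication genes tested, 4 were lower in hepatocytes than in Kupffer cells (13.7% of all genes), 5 than in LSEC (12.5%) and 4 than in day 1 HSC (12.3%). These lower counts are small and not far from the shares of all genes. The primase subunit Prim2 (-1.35, -1.20 and -1.65) and Rrm1 were in each count. In the same order 0 were higher in any of the 3, where 12%, 10% and 10.1% of all genes were. At an unadjusted p under 0.05 in limma 3, 3 and 6 were higher, against 4319, 3451 and 3543 of 12081 genes.

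The D-type cyclins and their kinases divided the populations. Ccnd2 read 6013 and 6193 in day 1 HSC and 3900.2, 3963 and 3275 in LSEC, against 469.5, 397 and 406 in Kupffer cells and 336, 249 and 324 in hepatocytes. LSEC and day 1 HSC were called above both others (hepatocytes minus LSEC -3.30, hepatocytes minus day 1 HSC -4.01), and the difference between them did not pass (-0.71, adjusted p = 0.00044). Ccnd1 ran otherwise, with 3021, 2905 and 2223 in Kupffer cells and 2084 and 1725 in day 1 HSC, both called above 612, 1123 and 339 in LSEC, while 360.3, 537 and 575 in hepatocytes overlapped with LSEC. Ccnd3 ranged from 361 to 694 over the 11 arrays and was not called in any pair. Cdk4 read 9655, 10550.0 and 9363 in LSEC and 7059.6 and 7057 in day 1 HSC, both called above 3346, 2758 and 2972 in hepatocytes and 3438, 3286 and 3124 in Kupffer cells. Cdk6 was the reverse in LSEC: it read 394, 487 and 285 there, 1638, 1438 and 942 in hepatocytes, 1459, 1473 and 1481 in Kupffer cells and 1129.8 and 1135 in day 1 HSC, and was lower in LSEC than in each (0.406% of genes were). Cdk2 was higher in LSEC (851, 947 and 672) than in hepatocytes (357, 383 and 312), a call that ended without hepatocyte replicate 3 or LSEC replicate 2. LSEC and day 1 HSC had the fewest calls, with 0 members higher in LSEC (5.24% of genes) and 2 lower (5.61%), Ccnd1 and Cdk6. In limma at an adjusted p under 0.05 alone the counts were 10 and 5, and at an unadjusted p under 0.05 they were 10 and 8. Of all 12081 genes 3607 were higher and 2895 lower at that unadjusted p.

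CDK inhibitors showed 2 population patterns. Cdkn1b read 1543, 1618 and 1813 in Kupffer cells, 1362, 1079 and 1338 in hepatocytes, 1188, 1119 and 1179 in LSEC and 535 and 613 in day 1 HSC. It was called higher in Kupffer cells (1.41 ± 0.11) and hepatocytes (1.03 ± 0.11) than in day 1 HSC, the latter near the size limit and lost without hepatocyte replicate 1 (0.97) or 3 (0.98) or day 1 replicate 1 (0.94). Cdkn2b read 624, 779 and 849 in LSEC, 336 and 361 in day 1 HSC, 286, 264 and 337 in hepatocytes and 254, 199 and 239 in Kupffer cells, and was called higher in LSEC (hepatocytes minus LSEC -1.14, Kupffer cells minus LSEC -1.41). Cdkn1c (192 to 296) and Cdkn2a (166 to 313) had no call, and Cdkn2c (112 to 184) failed the filter. The probe set shared by Cdkn1a and 4930567H12Rik read 1108, 1066 and 1279 in Kupffer cells and 6898 to 10564 on the 10 other arrays.

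Among genes known as p53 targets, 8 of 18 tested were lower in Kupffer cells than in LSEC (10.3% of all genes) and 3 higher (9.54%). The largest differences were in the death receptor Tnfrsf10b (-4.16, mean 125 against 3629), Eda2r (-3.64), Phlda3 (-3.23) and Zmat3 (-2.50). The antiproliferative gene Btg2 (2.85), Pmaip1, which encodes NOXA (2.52), and Sesn1 (2.30) ran the opposite way. Against day 1 HSC the counts were 8 lower (12.9% of genes) and 3 higher (11.7%), and against hepatocytes 8 were lower (12%) and 1 higher (13.7%) in Kupffer cells. Among pocket proteins Rb1 was lower in hepatocytes (mean 444) than in LSEC (2389), Kupffer cells (1630.4) and day 1 HSC (1239), with log2 differences of -2.23, -1.71 and -1.33.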

How the data were processed

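Biotin-labelled cRNA from 13 samples was hybridised to Affymetrix arrays, per the labels. The deposited table holds 1 summarised intensity per probe set on a linear scale (25194 probe sets). Affymetrix Expression Console and MAS5 (version 5.0) appear in the submitters' processing notes, with no role stated. The sources used here give no background correction, normalization or build.

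Of the probe sets, 21181 carried 1 symbol, 1379 several and 2634 none, by a platform annotation, and 21097 matched RefSeq (GRCm38.p6). Only the first kind was used, 1 per gene. No further normalization was applied. Values were tested as log2(intensity + 82.7), the pooled 20th percentile, which understates folds of dim genes, in R 4.3.3 with limma 3.58.1, two-sided, with Benjamini-Hochberg adjustment over all genes tested. The population fit used 11 arrays (12081 genes, 7 residual degrees of freedom) and the culture fit 13 arrays (12368 genes, 8 degrees), with days 7 and 14 as 1 group whose spread came mostly from the other groups. Errors of log2 differences are standard errors. The titles call the replicates of hepatocytes, Kupffer cells, LSEC and day 1 HSC biological. The sources used here do not say that each was a separate animal. The p-values thus measure the spread between these arrays, and precision is bounded by how few there are.

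Members called in culture, up to 6 per population pair, the CDK inhibitors, the D-type cyclins, Mki67 and Top2a were given in full. Of each further list up to 4 called genes were named. Members and lists were chosen with earlier results of these data known. The fits were tested on simulated data.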

Additional observations from a re-analysis of the deposited data

How the results depend on the processing

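Counts of called members were recomputed with quantile or median scaling, other added constants, no filter, all probe sets of a gene averaged, an intensity trend, other sets of arrays in the fit, no size limit and each replicate left out. Of the log2 differences of single members under all of these, 1984 kept their direction and side of the threshold, 68 lost the call, 4 gained it and 0 reversed.

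Dropping the size limit moved the counts most. Higher and lower were then 3 and 20 for hepatocytes against Kupffer cells, 15 and 8 for Kupffer cells against LSEC, 6 and 9 for hepatocytes against day 1 HSC, 14 and 5 for Kupffer cells against day 1 HSC, and 10 and 5 for LSEC against day 1 HSC. It gave 12 lower for hepatocytes against LSEC, 2 lower in long culture than at day 1, and 25 higher in long culture than in Kupffer cells. Shares of all genes with no size limit are not given here, so these counts are not read as traits of the members. For hepatocytes against day 1 HSC, 1 member in place of 2 was higher with the pooled median as the added constant or with all probe sets averaged. An added constant of 16 gave 8 lower there, and 2 higher in LSEC than in day 1 HSC. Quantile normalization left 1 lower in Kupffer cells than in day 1 HSC. With the day 14 array alone, long culture had 9 higher and 1 lower than day 1 (1 lower also with no filter), and 6 higher than Kupffer cells (9 with no filter). With the day 7 array alone 2 were lower than in Kupffer cells, with or without the filter. The alternatives without the filter for 1 later array were chosen after seeing the data.

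With 1 replicate left out at a time, higher calls ranged from 9 to 18 and lower from 0 to 1 in culture, and from 6 to 15 and 2 to 4 for long culture against Kupffer cells. They ranged from 1 to 2 and 4 to 7 for hepatocytes against day 1 HSC, and from 0 to 1 and 2 to 2 for LSEC against day 1 HSC. Ranges were 7 to 8 and 2 to 3 for Kupffer cells against day 1 HSC, 7 to 8 and 3 to 4 against LSEC, 1 to 1 and 9 to 10 for hepatocytes against Kupffer cells, and 2 to 3 and 5 to 6 for hepatocytes against LSEC.

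Samples with the same replicate number did not deviate together (correlations of -0.111 to 0.11, and -0.125 to 0.131 for unlike numbers). With 2 or 3 arrays per group this cannot show whether the numbers pair the samples. With the replicate block hepatocytes had 1 member higher than day 1 HSC, and no other population count moved by over 1.5 times. No paired analysis was possible for the culture comparison because the 7-day and 14-day titles carry no number. Genes under the filter are close to background and only large changes can be seen in them.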
